A study of Drosophila melanogaster with 4 samples.

Results

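The pericentric ends of arms 2L, 3L, 3R and X of *Drosophila melanogaster* are the 2 Mb of each assembled arm nearest the centromere. Distances are counted from that end of the assembled arm, not from the centromere itself. Histone H3 clusters are regions enriched in ChIP over input. Those of the ends were taken from the list of the replicate set (hereafter the combined list) and from the lists of both ChIP replicates. Coverage, number, spacing, width and value were compared mainly in the replicate lists. A cluster belonged to an end when its value was above 0 and its midpoint lay in the window. On FlyBase release 5 the windows ran on 2L from 21011545 to 23011544, on 3L from 22543558 to 24543557, on X from 20422828 to 22422827, and on 3R from 1 to 2000000. The combined list had 1169 such clusters of 23076 in all, 5.07%. The same windows held 853 of 18082 clusters of ChIP replicate 1 (4.72%) and 888 of 18625 of replicate 2 (4.77%).

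Nuclei of the Oregon-R strain (genotype wild type, stage 3rd Instar Larvae) were the source of the libraries. There was 1 group of 2 H3 ChIP libraries, made with an antibody named H3 antibody3 in the labels, and each had 1 library of input chromatin. The labels name no tissue for the homogenized, formaldehyde-treated material, so cell types cannot be told apart, and nothing says whether the replicates came from separate collections of larvae. The spread between them may therefore be technical. With 2 ChIP libraries and no second condition, an exact test over samples cannot go below p = 0.5. Values are therefore given for each replicate with their SD, and differences between regions of the same libraries are descriptions without a test. The lists give no read counts, so depth is unknown and single clusters have no error of their own.

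Histone H3 is a core histone, so H3 ChIP reports where nucleosomes are recovered relative to input chromatin, whatever their modification. In flies the chromatin beside the centromeres is packed as heterochromatin. It is rich in transposons and other repeats, carries methylation of H3 at lysine 9 and the protein HP1a that binds it, and can silence genes moved next to it. It still contains active genes, among them light on 2L, some of which depend on the heterochromatic setting. Each arm passes from this heterochromatin into gene-rich euchromatin at a distance that differs between arms.

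Coverage by H3 clusters differed between the 4 ends. Together they were covered over 26.8 ± 1.90% of their length in the replicates, against 40.7 ± 2.72% in the rest of the arms (SD, n = 2 for each). In the combined list these shares were 38.8% and 56.4%. The ratio of end to rest was 0.659 ± 0.0027 for the 4 ends, 0.471 ± 0.0051 on 2L, 0.516 ± 0.00049 on 3L, 0.658 ± 0.0069 on X and 0.950 ± 0.0036 on 3R (SD, n = 2 for each). Per 100 kb step, counted from the centromeric end of the assembled arm, the mean of both replicates ranged from 0 to 30.6% on 2L, from 4.04 to 61.2% on 3L, from 18.6 to 62.4% on 3R and from 5.47 to 51.0% on X. The median step was 18.3% on 2L, 15.2% on 3L, 19.6% on X and 47.3% on 3R. In the rest of each arm the median step was 37.7% on 2L, 39.2% on 3L, 45.9% on 3R and 37.7% on X. All 20 steps of the 2L end lay below the median step of the rest of 2L, against 17 of 20 on 3L, 15 on X and 9 on 3R. Below the lower quartile of the rest lay 18 steps on 2L, 17 on 3L, 12 on X and 5 on 3R. The 3R end was therefore spread around the level of its own arm, while most steps of the other 3 ends were under it.

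**Figure D1:**
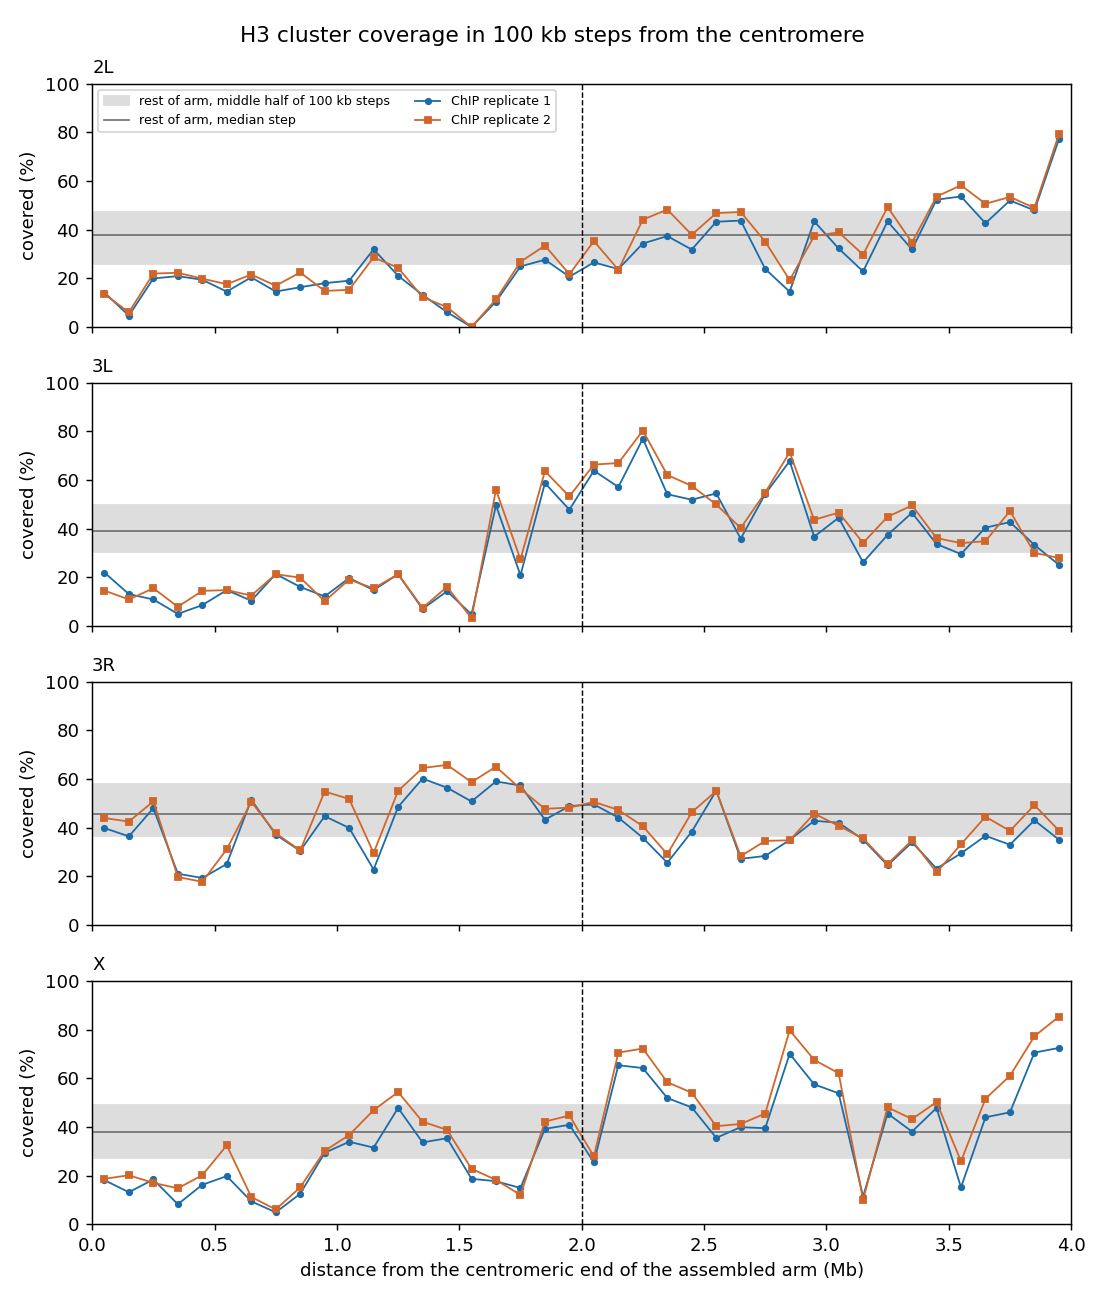
Share of each 100 kb step covered by H3 clusters (y axis, %) against distance from the centromeric end of the arm (x axis, Mb), with 1 panel per arm. Circles are ChIP replicate 1 and squares replicate 2, the dashed line marks 2 Mb, and the grey line and band are the median and quartiles of the steps beyond 2 Mb; 3L rises steeply near 1600 kb, 2L stays below its line throughout the end, and X falls back between 1500 and 1800 kb.

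The shapes of the profiles were distinct as well. On 2L coverage was low and flat, at 16.3 ± 0.65% from 0 to 500 kb, 17.7 ± 1.34% from 500 to 1000 kb, 18.0 ± 0.37% from 1000 to 1500 kb and 17.7 ± 1.37% beyond (SD, n = 2 for each). Its lowest step, from 21411545 to 21511544, was empty of clusters in the 3 lists alike. The highest step of the 2L end, 1800 to 1900 kb from its end, had 27.7% in replicate 1 and 33.5% in replicate 2. Even this step stayed below the 37.7% of the median step beyond 2 Mb.

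On 3L the change was abrupt. The first 1600 kb were covered over 13.5% in replicate 1 and 14.1% in replicate 2, and the last 400 kb over 44.3% and 50.1%. The step from 1500 to 1600 kb was the lowest of this end, with 4.82% and 3.26%, and the step after it reached 49.6% and 56.0%. From 1700 to 1800 kb coverage fell back to 20.9% and 27.4%. The highest step, from 1800 to 1900 kb, had 61.2 ± 3.49% (SD, n = 2), so the outer block was uneven. These block limits were chosen after the profile had been seen.

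On X coverage rose, fell and rose again. It was 13.4% in replicate 1 and 17.3% in replicate 2 over the first 900 kb, 35.2% and 41.5% from 900 to 1500 kb, 17.1% and 17.7% from 1500 to 1800 kb, and 40.0% and 43.4% from there to 2 Mb. In all 4 blocks, whose limits were also chosen after the profile had been seen, replicate 2 was the higher one. The combined list had 29.0, 53.2, 41.2 and 62.5% in these blocks, so its dip was shallower. From the block of 900 to 1500 kb to the next, its clusters per Mb went from 185 to 203. In replicate 1 they fell from 145 to 103, and in replicate 2 from 163 to 93.3. The lowest step lay 700 to 800 kb from the end (4.88% and 6.06%) and the highest 1200 to 1300 kb from it (47.8% and 54.3%).

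The 3R end started close to the level of its arm. Its first 300 kb were covered over 41.5% in replicate 1 and 45.8% in replicate 2, against 44.4% and 48.5% in the rest of the arm. A dip between 300 and 600 kb, with 21.9% and 22.9%, held its lowest step (19.4% and 17.8%, from 400001 to 500000). From 1200 kb to 2 Mb coverage was 53.1% and 57.7%. The highest step, from 1300 to 1400 kb, had 60.2% and 64.6%.

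A rule was used to mark where coverage reaches that of the arm, namely the first of 3 successive steps at or above the median step beyond 2 Mb. For the mean of both replicates this was at 3400 kb on 2L, 1800 kb on 3L, 1200 kb on 3R and 1100 kb on X. On 2L, 3L and 3R each replicate alone gave the same distance, but on 2L it was 2200 kb in the combined list or with 2 successive steps, and 2250 kb with steps of 50 kb. On X replicate 2 gave 1100 kb and replicate 1 gave 2100 kb, so the place on X rests on 1 library, and steps of 200 kb gave 1800 kb. The 2L distance lay outside the 2 Mb window under each of these settings.

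Full 2 Mb windows were also laid from the centromeric end of each arm. The pericentric one was the lowest of 11 on 2L, of 12 on 3L and of 11 on X in each of the 3 lists. The next lowest windows of these arms in replicate 1 had 22.8%, 30.6% and 27.5%. On 3R it ranked 5th of 13 from below in replicate 1, 7th in replicate 2 and 4th in the combined list. The lowest window of 3R in all 3 lists was its neighbour from 2 to 4 Mb, with 36.0% and 38.8% in the replicates. At the other tip of the same arms, the telomeric 2 Mb, the covered share was 47.6 ± 3.87% on 2L, 52.8 ± 2.95% on 3L, 49.2 ± 3.66% on 3R and 50.5 ± 5.10% on X (SD, n = 2 for each).

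Low coverage went with fewer clusters. The 2L end had 73.5 clusters per Mb in replicate 1 and 71.5 in replicate 2, against 140 and 144 in the rest of 2L. The 3L end had 79.5 and 82.5 against 146 and 151. The X end had 107 and 120 against 133 and 139. On 3R the numbers were nearly equal, 166.5 and 170.5 in the end against 166 and 169 in the rest. In the replicate lists, differences between end and rest on 2L, 3L and X exceeded the difference between the replicates. In the combined list the numbers on X were much closer, 168.5 per Mb in the end against 176 in the rest, while 2L had 103 against 185 and 3L 121 against 182.

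Spacing showed the same order. The median stretch between neighbouring clusters was 6250 bp in replicate 1 and 7030 bp in replicate 2 on the 2L end, against 2330 and 2092 bp in the rest of the arm. It was 3772 and 3331 bp on 3L against 2098 and 1934 bp, and 2778 and 2638 bp on X against 2381 and 2052 bp. On 3R it was 1837 and 1760 bp against 1756 and 1602 bp. Over the 4 ends together the median stretch was 2623 ± 104 bp, and over the rest of the arms 1967 ± 129 bp (SD, n = 2 for each). Medians understate the contrast, because a few very long stretches took up much of the ends.

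Stretches of at least 20 kb without a cluster in any of the 3 lists numbered 40 in the ends and 93 in the rest of the 4 arms. The ends thus held 30.1% of them on 8.17% of the length. They took up 26.0% of the 3L end with 17 stretches, 24.7% of the 2L end with 14, 10.5% of the X end with 6 and 3.31% of the 3R end with 3. In the rest of the arms the shares were 2.91% on 3L, 3.13% on 2L, 3.98% on X and 1.47% on 3R. Of the 40 stretches, 26 lay within 1 Mb of the centromeric end of the arm and 14 beyond. Whether reads can be placed in these stretches was not tested, so a missing cluster need not mean missing H3.

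The longest such stretch of each end was on 2L from 21410083 to 21529421 (119 kb), on X from 21687139 to 21758725 (71.6 kb), on 3L from 22954560 to 22997793 (43.2 kb) and on 3R from 334123 to 359043 (24.9 kb). On 3L this stretch and its neighbour from 22999041 to 23035579 (36.5 kb) were separated by little more than 1 kb. Both lay in the lowest 3L step, from 1500 to 1600 kb, next to the step where coverage rose. On 3R all 3 long stretches sat inside the dip between 300 and 600 kb. On 2L, 9 of 14 lay within 1 Mb, and a further 4 began between 1394 and 1614 kb, around the empty step.

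Cluster width differed less than number and spacing. The median width was 1872 bp in replicate 1 and 2010 bp in replicate 2 on the 2L end, 1998 and 2166 bp on 3L, 2069 and 2125 bp on 3R, and 1773 and 1850 bp on X. The rest of the arms had 1993 and 2032 bp on 2L, 2034 and 2060 bp on 3L, 2072 and 2165 bp on 3R, and 2035 and 2138 bp on X. On X the end was lower in both replicates by more than they differed. On 2L and 3R the mean difference in median (-71.5 ± 70.0 and -21.25 ± 26.5 bp) was about the size of the spread between replicates, and on 3L the replicates differed in sign (-36 and 106 bp; SD, n = 2 for each). In the combined list the end had the lower median on each of these arms, with 1953 against 2057 bp on 2L, 2061 against 2161 bp on 3L and 2272 against 2389 bp on 3R. Mean width was lower in the end in both replicates, with differences of -244 and -146 bp on 2L, -135 and -144 bp on 3L, and -136 and -162 bp on 3R. In both replicate lists no cluster was narrower than 1301 bp, which limits how far a median can fall.

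The share of wide clusters was lower in the ends. Clusters of at least 5 kb made up 4.34% of the end clusters in replicate 1 and 6.08% in replicate 2, against 7.60% and 9.67% in the rest. In the combined list 109 of 1169 reached 5 kb (9.32%) against 2297 of 16593 (13.8%). At least 10 kb was reached by 9 of 1169 (0.77%) against 391 of 16593 (2.36%). Of these 9 clusters 6 lay on 3R, 2 on X, 1 on 3L and 0 on 2L.

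The widest cluster of each end shows how domains were split between lists. On 3L it ran from 23292340 to 23306744 (14.4 kb, log2 value 1.08), and replicate 1 (13.7 kb, 1.02) and replicate 2 (13.9 kb, 1.18) each had it as 1 cluster. It lay 1237 kb from the end, in the part of 3L with low coverage. On 2L the widest ran from 22758268 to 22767914 (9.65 kb, 1.02), again 1 cluster in replicate 1 (9.48 kb, 1.06) and in replicate 2 (9.30 kb, 0.99). On 3R the widest ran from 1756764 to 1771338 (14.6 kb, 0.42) and was 4 clusters in replicate 1, with values from 0.38 to 0.57, and 2 in replicate 2 (0.43 and 0.45). On X it ran from 20472058 to 20483518 (11.5 kb, 0.63) and was 4 clusters in each replicate. The widest combined clusters of 2L and 3L were thus unbroken in the replicates and carried values above 1 in the combined list. Those of 3R and X corresponded to several replicate clusters with values below 1. Elsewhere in these 2 ends the replicates had wide single clusters too. The widest were 9.64 kb in replicate 1 and 10.7 kb in replicate 2 on 3R, and 8.75 and 8.61 kb on X.

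The value of a typical cluster was close to that of the rest of the arms. Values were read as log2 enrichment of ChIP over input, since no header names their unit. Over the 4 ends the median was 0.54 in replicate 1 and 0.53 in replicate 2, and over the rest 0.54 and 0.53. The difference of end minus rest was -0.0034 ± 0.00082 (SD, n = 2). Over the 4 ends together, fewer clusters were therefore not accompanied by lower values of those called. This pooled difference covers arms of opposite sign. In both replicates the median was lower in the end on 2L, 3R and X, on X within the spread between replicates, and higher on 3L. Listed clusters alone enter these medians, so chromatin that was not called is not seen in them.

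The 4 ends differed from each other in value. The 3L end had a median of 0.59 in replicate 1 and 0.60 in replicate 2, against 0.52 and 0.51 in the rest of 3L, a difference of 0.077 ± 0.014 (SD, n = 2). The 2L end had 0.48 and 0.50 against 0.52 and 0.52, and the 3R end 0.51 and 0.51 against 0.53 and 0.52. On X the end had 0.61 and 0.55 against 0.61 and 0.61, so that replicate 1 showed almost no difference and replicate 2 a lower end. The lower 2L and 3R values (-0.032 ± 0.015 and -0.012 ± 0.0051; SD, n = 2 for each) and the 3L excess were larger than the spread between replicates, and the shift on X was not. In the combined list the difference on 2L turned to 0.0071 and that on 3L was 0.098.

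Along the ends the values varied by arm. On 2L the median of the first 1000 kb was 0.58 in both replicates, and that of the next 1000 kb was 0.43 and 0.46. On 3L the medians of successive 500 kb blocks, in the mean of both replicates, were 0.67, 0.60, 0.70 and 0.54, so the block from 1000 to 1500 kb was the highest and the outermost block the lowest. On 3R the medians of successive 500 kb blocks stayed between 0.50 and 0.52 in the mean of both replicates. On X they ran from 0.56 to 0.63, with replicate 1 above replicate 2 in each block. Over the 100 kb steps of an end, Pearson's r of covered share with median value was -0.10 on 2L (19 steps with a cluster), and over 20 steps each it was -0.36 on 3L, -0.31 on 3R and -0.43 on X. These are weak relations between steps of the same libraries, given as a description.

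**Figure D2:**
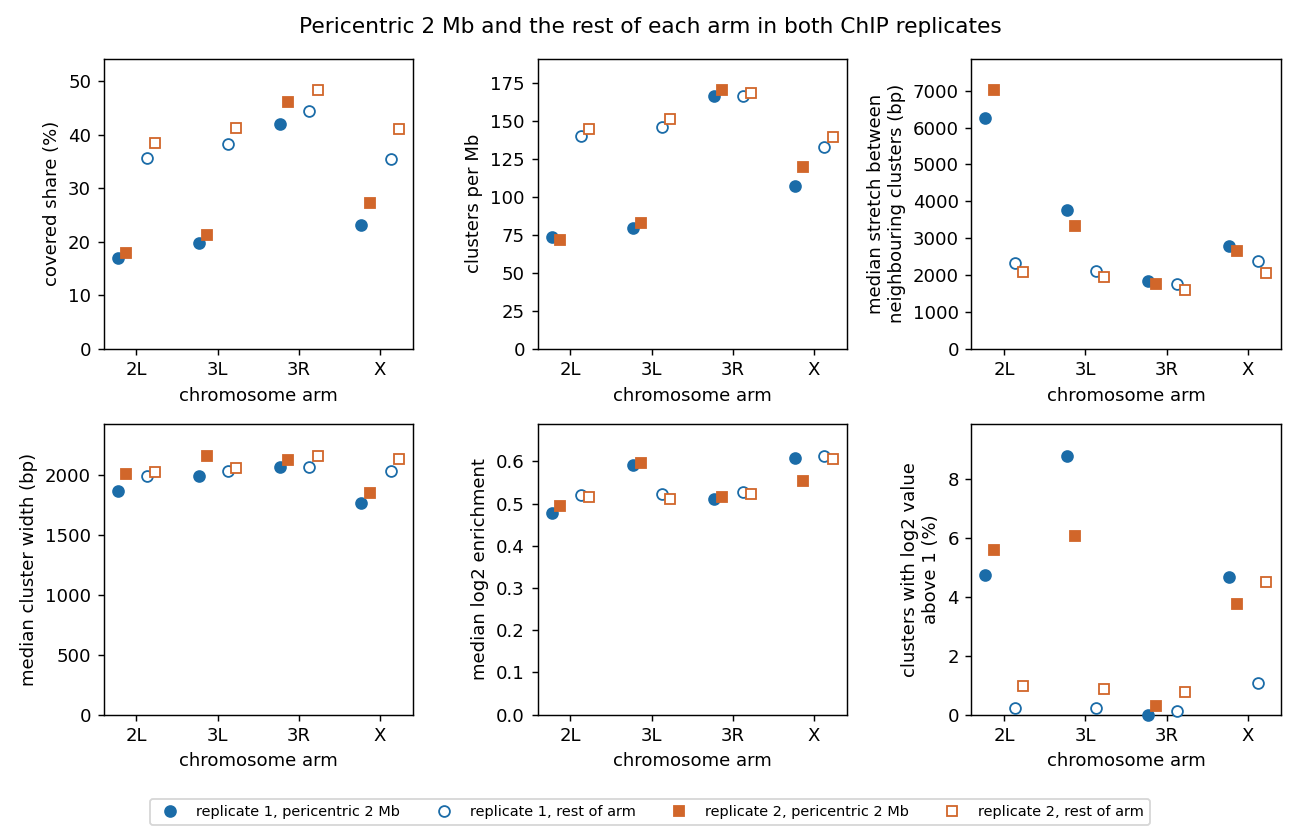
Covered share (%), clusters per Mb, median stretch between clusters (bp), median width (bp), median log2 enrichment and share of clusters with a log2 value above 1 (%) for each arm (x axis). Filled symbols are the pericentric 2 Mb, open symbols the rest of the arm, circles replicate 1 and squares replicate 2. Filled and open symbols are far apart for coverage and number on 2L and 3L and closer for width and median value. On X in the last panel the open square (4.50%) lies above the filled square (3.77%), and the open circle (1.07%) below the filled circle (4.67%).

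Median value rose with width over the narrower classes. In the ends a last rise, into the class from 5000 bp, was present in replicate 2 (0.683 to 0.712). It was absent in replicate 1 (0.664 to 0.659). In the ends the median log2 value was 0.43 ± 0.018 for clusters below 2000 bp, 0.60 ± 0.0023 from 2000 to 3000 bp, 0.67 ± 0.014 from 3000 to 5000 bp and 0.69 ± 0.037 from 5000 bp (SD, n = 2 for each). The rest of the arms had 0.42 ± 0.024, 0.59 ± 0.0013, 0.65 ± 0.0095 and 0.74 ± 0.028 (SD, n = 2 for each). The widest class was the one in which the ends were lower, where replicate 1 had 0.66 in the ends and 0.72 elsewhere, and replicate 2 had 0.71 and 0.76. This class held only 37 and 54 end clusters, and the arms were pooled. The 3R arm gave 16 of the 37 and 27 of the 54, against 338 of 1008 and 457 of 1320 in the rest.

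A small number of end clusters carried high values. In the combined list 39 of 1169 had a log2 value above 1 (3.34%), against 52 of 16593 in the rest of the 4 arms (0.31%). Replicate 1 had 31 of 853 (3.63%) against 49 of 13255 (0.37%), and replicate 2 had 28 of 888 (3.15%) against 222 of 13656 (1.63%). The contrast was much smaller in replicate 2. Its rest of X alone held 128 of these 222, and there the X end was the lower one, with 3.77% against 4.50%. In replicate 1 the X end was the higher one (4.67% against 1.07%), as in the combined list (4.15% against 0.70%). On 2L the end had 4.76% and 5.59% in the replicates against 0.24% and 0.99%, and on 3L 8.81% and 6.06% against 0.21% and 0.88%. The 3R end had 0 of 333 and 1 of 341, against 0.14% and 0.78% in the rest of 3R.

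**Figure D3:**
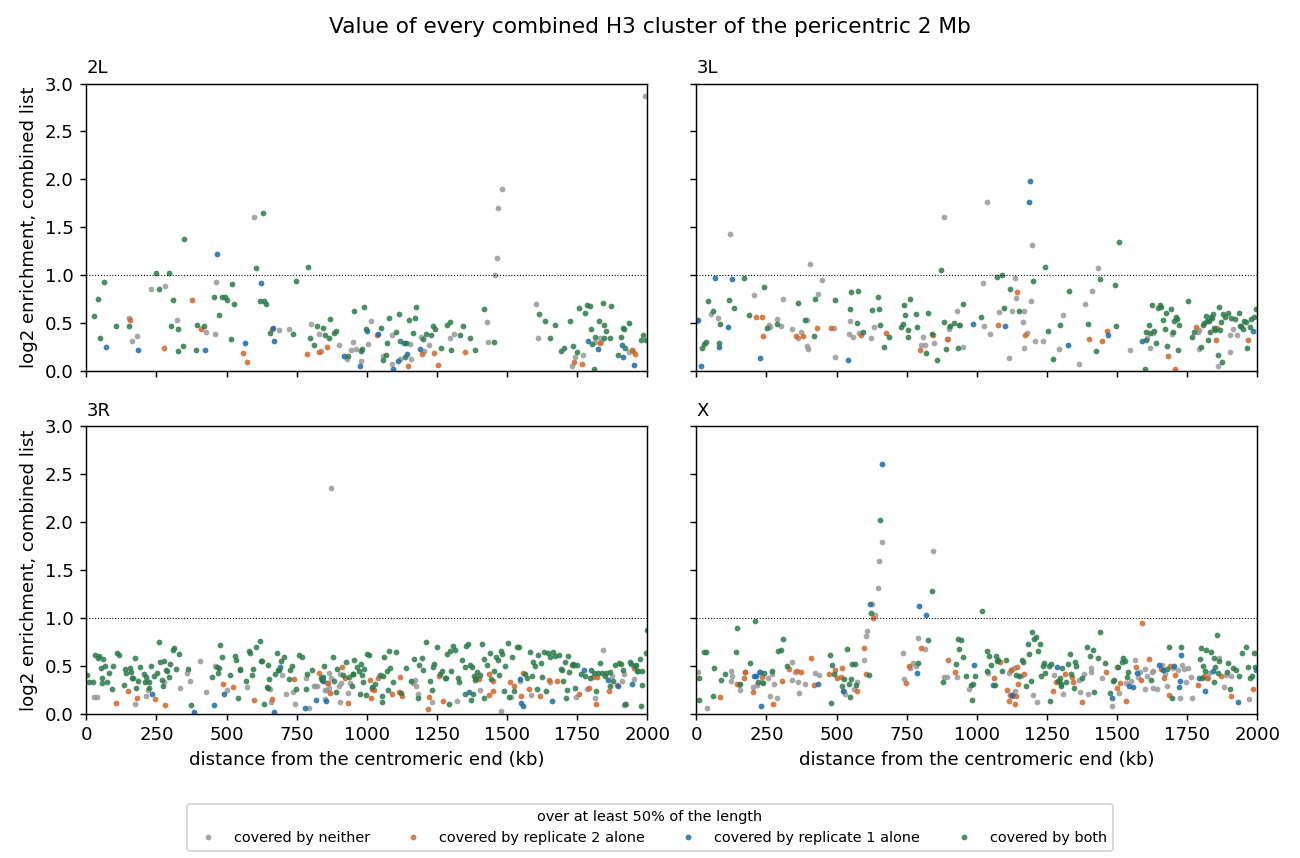
Log2 enrichment of each combined cluster of the 4 ends (y axis) against distance from the centromeric end (x axis, kb), with 1 panel per arm. Colour gives the replicates that covered at least 50% of the cluster, and the dotted line marks a value of 1; on X 13 of 14 points above 1 fall between 600 and 900 kb, while 3R has 1.

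On X the high values were gathered in one place, which was noticed after the values had been seen. Of its 14 combined clusters above 1, 13 lay between 618 and 842 kb from the end, and 9 of them between 600 and 700 kb. Among these 9, the clusters starting at 21795106, 21784610, 21773646, 21769880 and 21761002 overlapped no cluster of either replicate. The highest combined cluster of the X end ran from 21758726 to 21760904 with a value of 2.60 and bordered the 71.6 kb stretch without clusters. Replicate 1 had a cluster of 2.83 there, and replicate 2 had none. Close to it, the cluster from 21766288 to 21768892 had 2.02 and was covered over 69.1% by replicate 1 and 94.3% by replicate 2. The highest value of the X end in replicate 1, 2.93, was at this second place, and that of replicate 2, 2.98, was on another cluster, from 21825876 to 21827259.

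The highest combined values of the other ends were absent from at least 1 replicate list, as on X. On 2L the highest combined cluster ran from 21020330 to 21021330 (1001 bp, 2.87), close to the outer edge of the window, and on 3R from 873306 to 874376 (1071 bp, 2.36). In both places the replicate lists, whose clusters were all at least 1301 bp wide, were empty. On 3L it ran from 23352700 to 23354972 (2273 bp, 1.98), where replicate 1 had a cluster of 1.98 and replicate 2 had none. The highest 3L value of replicate 1, 2.66, was next to it, from 23356623 to 23358082, again with none in replicate 2. On 2L both replicates had their highest value at the same place, 629 kb from the end, with 1.81 in replicate 1 and 1.83 in replicate 2. The combined list gave it 1.65, from 22381064 to 22383810.

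Of the 39 combined clusters above 1, 17 overlapped no replicate cluster, against 22.8% of all combined clusters. For values above 1 and up to 2 it was 15 of 35 in the ends (42.9%) and 10 of 44 in the rest (22.7%). Above 2 it was 2 of 4 and 7 of 8. Some values occurred, exactly the same, in at least 1 other region of the combined list. This held for 15 of the 17 without overlap, for 9 of the other 22, and for 316 of the 1130 clusters of up to 1. Repeated values were not counted for clusters of the rest. Among the 39, 7 stood beside a stretch of at least 20 kb (17.9%), against 68 of the 1130 (6.02%). In replicate 1 it was 18 of 31 (58.1%) against 100 of 822 (12.2%), and in replicate 2 it was 12 of 28 (42.9%) against 101 of 860 (11.7%). For the rest of the arms these shares in replicate 1 were 10.2% and 5.47%, and in replicate 2 they were 3.60% and 4.36%. In the combined list they were 1.92% and 1.11%. With the arms pooled, high clusters of the ends were thus more often at the border of a long empty stretch in all 3 lists. The arms were not compared one by one, and in the combined list 3R had 1 of the 39 high clusters and 3 of the 40 long stretches.

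The replicates recovered each other's end clusters about as often as elsewhere. A replicate 1 cluster counted as recovered when 50% or more of its bases lay in replicate 2 clusters, which held for 746 of 853 (87.5%), against 88.5% over all clusters of the series. The reverse held for 709 of 888 (79.8%), against 81.0% over all. On 2L the shares were 84.4% and 83.9%, on 3L 88.7% and 81.8%, and on 3R 92.8% and 84.8%. The X end had the lowest, 80.4% and 69.0%, against 89.4% and 77.4% in the rest of X. Over 762 pairs of overlapping clusters in the ends, Pearson's r of the values was 0.803 and Spearman's rho 0.743, given as a description, since neighbouring clusters share libraries and input. Replicate 2 was lower than replicate 1 on the X end by a median of 0.034, and higher by 0.028 on 2L, 0.020 on 3L and 0.017 on 3R.

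Of the combined clusters of the ends, 634 of 1169 had 50% or more of their bases in clusters of replicate 1 and also of replicate 2 (54.2%), against 55.3% for the whole combined list. How the replicate set was joined is not stated, and it draws on the same 2 ChIP libraries. The share was 65.4% on 3R, 54.4% on 2L, 52.9% on 3L and 42.4% on X, against 60.5%, 53.8%, 56.9% and 52.7% in the rest of these arms. Overlap with neither replicate list, not even by 1 base, was found for 270 of 1169 (23.1%), against 22.8% over all. The share covered by both replicates differed by width and by value. Below 1500 bp it was 2 of 290 clusters of the ends (0.69%) and 43 of 3687 of the rest (1.17%). From 1500 to 3000 bp it was 365 of 563 (64.8%) and 4575 of 7345 (62.3%). Combined clusters were as narrow as 1001 bp, while no replicate cluster was narrower than 1301 bp. Among values up to 0.5, both replicates covered 362 of 805 clusters of the ends (45.0%) and 5141 of 12028 of the rest (42.7%). Among values above 0.5 and up to 1, both replicates covered 258 of 325 clusters of the ends (79.4%) and 4174 of 4513 of the rest (92.5%). Above 1 and up to 2 they covered 13 of 35 (37.1%) and 32 of 44 (72.7%). Above 2 they covered 1 of 4 and 0 of 8.

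The innermost clusters were in all 3 lists on 2L and 3R, and in the combined list alone on 3L and X. On 3R the first combined cluster ran from 150 to 2364 (0.40), with clusters of 0.39 in replicate 1 and 0.47 in replicate 2. On 2L it ran from 22983654 to 22985998 (0.57), 25.5 kb from the end, with clusters of 0.83 and 0.68. On 3L it ran from 24540504 to 24542370 (0.52) and on X from 22415412 to 22416714 (0.43), and neither replicate had a cluster on these. The first replicate clusters of X began 7.61 kb and 7.54 kb from the end, and those of 3L 4.72 kb and 21.1 kb from it. Beyond these ends, the mapped heterochromatin scaffolds had still lower coverage, 7.97 ± 0.42% on 2LHet, 10.2 ± 0.089% on 3LHet, 11.5 ± 0.66% on 3RHet and 12.7 ± 1.76% on XHet (SD, n = 2 for each). XHet is 204 kb long and 2LHet 369 kb, so the values of these 2 scaffolds rest on 11 to 13 clusters per replicate.

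At the outer edge of the windows, the last cluster inside and the first outside had log2 values of 0.33 and 0.32 on 2L, 0.64 and 0.43 on 3L, 0.87 and 0.13 on 3R, and 0.46 and 0.41 on X. Genes under the clusters were not assigned here.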

How the data were processed

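H3 ChIP-seq was analysed from 3 deposited lists of regions on FlyBase release 5, per the file headers. The submitters' processing notes name Bowtie 0.12.7. Not given in the sources used here are the caller, its thresholds, the scaling to input and the handling of repeats. The authors deposited 1 value per region, and no header names its unit, which was read as log2 of ChIP over input from the values themselves. The 40 highest values of each list comprise 32, 29 and 11 distinct ones (replicate 1, replicate 2, combined list). Pairs of these differed by the log2 of a fraction with a denominator up to 100 (tolerance 1e-08) in 449 of 496 pairs in replicate 1, 343 of 406 in replicate 2 and 55 of 55 in the combined list, by the log10 of one in 8, 3 and 1 pairs, and by the natural log of one in 0.

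Covered bases were counted per base, and clusters were assigned by midpoint, in Python 3.11.15 with numpy 2.4.6 and pandas 2.3.3. Wilson intervals, used to judge alternatives of 1 share, came from scipy 1.17.1, and plots from matplotlib 3.10.9. These intervals treat neighbouring clusters of the same libraries as independent, so they measure no spread between samples. Sharing required 50% of a cluster's length. Coverage was counted in steps of 100 kb. The counting was tested on simulated lists. Named regions were, per end, the widest cluster, the highest value, the longest stretch, the innermost cluster and the lowest and highest step of the combined list or replicate mean. The windows, members and tests were chosen with earlier results of these data known. Alternatives were a value filter, merging of neighbours, other end and step sizes, other overlaps, the combined list, assignment by midpoint and leaving out a replicate. No sequence or gene annotation was used.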

Additional observations from a re-analysis of the deposited data

Results flagged for a closer look

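The combined list also holds regions with values below 0, which are no part of the comparisons above, and 18 of them lay in the 4 ends. They are given here because no comparison used them. They are 8.65% of the 208 on these arms, on 8.17% of the length. The 2L end had 8, 3R 6, X 4 and 3L 0, against 58 in the rest of 3L. Their log2 values ran from -0.11 to -0.00056. Enriched clusters of a replicate overlapped 8 of the 18, and the replicate lists had 0 such regions in the ends.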

How the results depend on the processing

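Ratios of covered share (end to rest; 0.471 on 2L, 0.516 on 3L, 0.950 on 3R, 0.658 on X, 0.659 over the 4 ends) moved by more than the SD of the replicates under several alternatives. With values at or above the list median they were 0.424, 0.603, 0.825, 0.566 and 0.614 in the same order. With ends of 4 Mb they were 0.803, 0.870, 0.864, 1.02 and 0.878, so that X no longer lay below the rest of its arm. Ends of 1 Mb gave 3L 0.354, 3R 0.788, X 0.440 and the 4 ends 0.523. The combined list gave 0.478, 0.556, 0.929, 0.764 and 0.688 for the 5 ratios. On 3L merging gave 0.514 and assignment by midpoint 0.517.

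The difference in median value (-0.0034) was 0.013 with the value filter, -0.0044 after merging, 0.0071 with 1 Mb, -0.0080 with 4 Mb and 0.025 in the combined list, so its sign depends on the setting. The difference in median width (-60 bp) was -295, -169.75, -83.5, -46.75 and -166 bp under the same 5 settings, and that in spacing (656 bp) was 2450, 864.75, 1768, 100 and 440 bp. The difference in the share recovered by the other replicate (-1.19 percentage points) was -1.70, -1.55, -2.10 and -0.151 under the first 4, -1.53 for an overlap of 1 bp and -1.28 for 80%. Coverage of a combined cluster by each replicate (54.2% of them) held for 42.6% with the value filter, 51.1% with 1 Mb, 57.3% with 1 bp and 34.6% with 80%. The distance at which 2L reached its arm's level (3400 kb) was 2250 kb with steps of 50 kb, 3200 kb with 200 kb, and 2200 kb with a run of 2 steps or the combined list, and that of 3R (1200 kb) was 900 kb with a run of 2. In all, 22 of 73 such settings left a value within its band, which was the SD of the replicates on either side. Coverage of a combined cluster by each replicate had a Wilson interval (51.4 to 57.1%) as its band. For the distance on 2L, 3L and 3R the SD was 0, so any change counted as a move. On X the SD was 707 kb, so 1800 kb counted as unmoved from 1100 kb. The cause was not tested for any of these moves.

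Using 1 replicate alone, the ratios ran from 0.468 to 0.475 on 2L, 0.516 to 0.516 on 3L, 0.948 to 0.953 on 3R, 0.653 to 0.662 on X and 0.657 to 0.661 over the 4 ends. The distance was 3400 kb on 2L, 1800 kb on 3L and 1200 kb on 3R, and on X it was 1100 kb without replicate 1 and 2100 kb without replicate 2. The value difference ran from -0.0040 to -0.0028, width from -65 to -55 bp, spacing from 638.5 to 674 bp, the recovered share from -1.20 to -1.17 points, and combined clusters covered by the 1 replicate left from 61.8% to 68.0%. No paired analysis was possible because the study has 1 ChIP group and its inputs have no list of regions. Depth is unknown, so clusters missing from a list may lie below its limit of detection.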
